A study of Mus musculus with 21 samples.

Results

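Brush border hydrolases are enzymes anchored in the apical membrane of absorptive enterocytes, where they split sugars, peptides and phosphate esters at the last step of digestion. Counts of 9 of their genes, namely Sis, Lct, Alpi, Anpep, Mgam, Treh, Dpp4, Mme and Enpep, were followed in bulk RNA-seq libraries of sorted mouse Paneth cells. The 9 genes were listed by name as enterocyte brush border enzymes, and the set was chosen by measured values too, because Sis was already known to be higher on zinc water in these same libraries. They are 9 of 55414 gene identifiers in the table of counts, and all 9 were among the 13070 genes that passed the filter on low counts.

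The microvilli of the enterocyte form the brush border, and its hydrolases are made in the secretory pathway and delivered to the apical membrane as the cell leaves the crypt and moves up the villus. Sucrase-isomaltase and lactase are classical markers of this maturation, and their genes are driven by the intestinal factors of the Cdx, HNF1, HNF4 and GATA families. Paneth cells sit at the base of the crypt, secrete antimicrobial peptides and are a separate, secretory branch of the epithelium.

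The 21 libraries came from FACS-sorted Paneth cells of the small intestine of C57BL/6J mice. Animals drank Milli-Q (purified) water or water with zinc sulfate, 200 mM as the labels give it, for 7 weeks. The microbiome came in 3 contexts: mice kept specific pathogen free (SPF), mice of that housing that received broad-spectrum antibiotics in the last 3 of the 7 weeks (ABX), and germ-free (GF) mice. SPF mice gave 3 libraries on each water, ABX mice gave 4 on each water, and GF mice gave 3 on Milli-Q and 4 on zinc water. None of the groups carried a transgene or a deletion according to the labels, and no age is stated for the mice. The study's text describes its samples as cells of individual mice, while the labels number the libraries without saying so, and p-values measure the spread between these libraries.

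Total counts per library ran from 9888174 to 16896714. CPM are counts scaled by the library total times a TMM factor, which centers libraries on the bulk of genes. This factor ran from 0.522 in GF zinc replicate 1 to 1.49 in ABX Milli-Q replicate 1, so CPM are not shares of counts. Summed Paneth cell markers (Lyz1, Defa24 and 7 others) reached between 170198 and 825756 CPM, and none of the 9 was at 0 in every library. These 9 markers took 25.3% to 43.4% of all counts in a library. Summed markers of goblet cells (8 genes) lay between 8094 and 18619 CPM, of stem and cycling cells (7 genes) between 2308 and 5331 CPM, of enteroendocrine cells (8 genes) between 58.4 and 201 CPM and of tuft cells (6 genes) between 97.1 and 358 CPM. Immune markers summed to at most 19.0 CPM and stromal markers to at most 3.54 CPM, with Csf1r and Col3a1 at 0 in every library. A list of 12 enterocyte genes that holds none of the hydrolases (among them Fabp1, Apoa1, Apoa4, Apob and Krt20) had all 12 detected and differed more between groups. In SPF mice it summed to 466 to 630 CPM on Milli-Q and 958 to 1764 CPM on zinc water. In ABX mice it summed to 328 to 397 CPM on Milli-Q and 388 to 641 CPM on zinc water, and in GF mice to 359 to 1087 CPM on Milli-Q and 399 to 2074 CPM on zinc water. One library, SPF zinc replicate 1, stood apart by 6228 counts of Xist, the transcript of the inactive X chromosome, against at most 34 in any other. In bulk libraries, fewer cells of a type and less RNA per cell cannot be told apart.

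Promoter sequences are shown for 4 hydrolases, since they form the pairs whose levels ran most closely together over the libraries (Sis with Enpep, and Lct with Treh). Each is the stretch of 250 bases that ends 1 base before the start of the canonical transcript in GENCODE M39 on GRCm39, read on the strand of the gene. Capitals mark matches on either strand to TTTAT (the core of Cdx elements), GTTAAT (a part of HNF1 elements), CAAAGT (a core of HNF4 elements), AGATAA (an element of GATA factors) and TATAAA (the TATA box). For the metal response elements bound by Mtf1, the core TGCACNC was searched, and so was its other common form, TGCGCNC. Matches may overlap, as they do where TTTAT and TATAAA share bases.
Sis, chr3:72875197-72875446, minus strand: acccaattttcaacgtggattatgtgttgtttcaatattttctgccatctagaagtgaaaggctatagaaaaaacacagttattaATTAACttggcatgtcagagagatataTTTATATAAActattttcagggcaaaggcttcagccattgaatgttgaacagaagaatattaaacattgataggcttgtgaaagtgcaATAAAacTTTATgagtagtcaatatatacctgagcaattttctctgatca
Enpep, chr3:129126370-129126619, minus strand: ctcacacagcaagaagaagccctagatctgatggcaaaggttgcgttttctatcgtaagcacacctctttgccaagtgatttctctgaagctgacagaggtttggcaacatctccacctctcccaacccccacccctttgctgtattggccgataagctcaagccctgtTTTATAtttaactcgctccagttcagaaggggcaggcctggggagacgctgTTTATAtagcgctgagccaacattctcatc
Lct, chr1:128256056-128256305, minus strand: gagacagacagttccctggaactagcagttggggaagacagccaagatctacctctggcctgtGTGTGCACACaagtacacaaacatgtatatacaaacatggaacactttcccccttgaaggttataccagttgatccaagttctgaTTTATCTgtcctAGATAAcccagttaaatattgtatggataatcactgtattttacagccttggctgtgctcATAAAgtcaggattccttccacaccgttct
Treh, chr9:44584280-44584529, plus strand: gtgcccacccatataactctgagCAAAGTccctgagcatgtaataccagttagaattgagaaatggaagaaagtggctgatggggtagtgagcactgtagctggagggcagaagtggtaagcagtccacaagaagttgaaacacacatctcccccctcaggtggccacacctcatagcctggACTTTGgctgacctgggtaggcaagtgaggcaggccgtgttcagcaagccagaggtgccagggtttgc

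The Sis stretch had a GC content of 31.6%, the Lct stretch 42.8%, the Enpep stretch 49.6% and the Treh stretch 53.2%. TTTAT matched in 6 of the 9 hydrolase promoters (Sis, Lct, Alpi, Mgam, Dpp4 and Enpep), and in 36.8% of 21770 protein-coding promoters of the same length. GTTAAT matched only in that of Sis among the 9 and in 6.28% of all promoters. TATAAA matched in those of Sis, Alpi, Dpp4 and Enpep, and in 11.9% of all. AGATAA matched in those of Lct, Mgam and Dpp4 (9.60% of all), and CAAAGT in those of Alpi, Treh and Mme (13.4% of all). Of the metal response cores, TGCACNC matched in that of Lct (10.7% of all) and TGCGCNC in those of Mgam and Mme (12.8% of all). Neither metal response core was found in the printed stretches of Sis and Enpep. A match is a description of letters and not a site, and its absence speaks of this window alone.

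Levels of different genes were set side by side per kilobase of the longest annotated transcript. Anpep, the gene of aminopeptidase N, had the highest mean level at 44.0 ± 16.5 CPM per kilobase (SD, n = 21), followed by Mgam at 16.98 ± 4.14. Dpp4 came next at 5.71 ± 0.938 CPM per kilobase, then Alpi at 5.47 ± 6.32 and Sis at 2.87 ± 3.33. Treh stood at 2.07 ± 2.05 CPM per kilobase, Enpep at 2.04 ± 1.39, Lct at 1.74 ± 2.68 and Mme at 1.09 ± 0.630. Anpep was above Mgam in 20 of 21 libraries and Mgam above Dpp4 in 21 of 21. From Dpp4 downwards, neighbours in this order changed places between libraries, for example Alpi and Sis, with Alpi the higher in 14 of 21, and Treh and Enpep, with Treh the higher in 10 of 21.

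The 9 genes differed far more in how steady they were. Between the lowest and the highest library, CPM differed 2.09-fold for Dpp4, 2.27-fold for Mgam and 3.08-fold for Anpep. The ratio was 7.90-fold for Mme and 8.46-fold for Enpep. It was 19.9-fold for Treh, 30.6-fold for Sis, 65.4-fold for Alpi and 180-fold for Lct. At the low end these ratios rest on few counts, with 5 counts for Lct in its lowest library and 6 for Treh, while Sis never had fewer than 22 and Anpep never fewer than 1221.

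**Figure D1:**
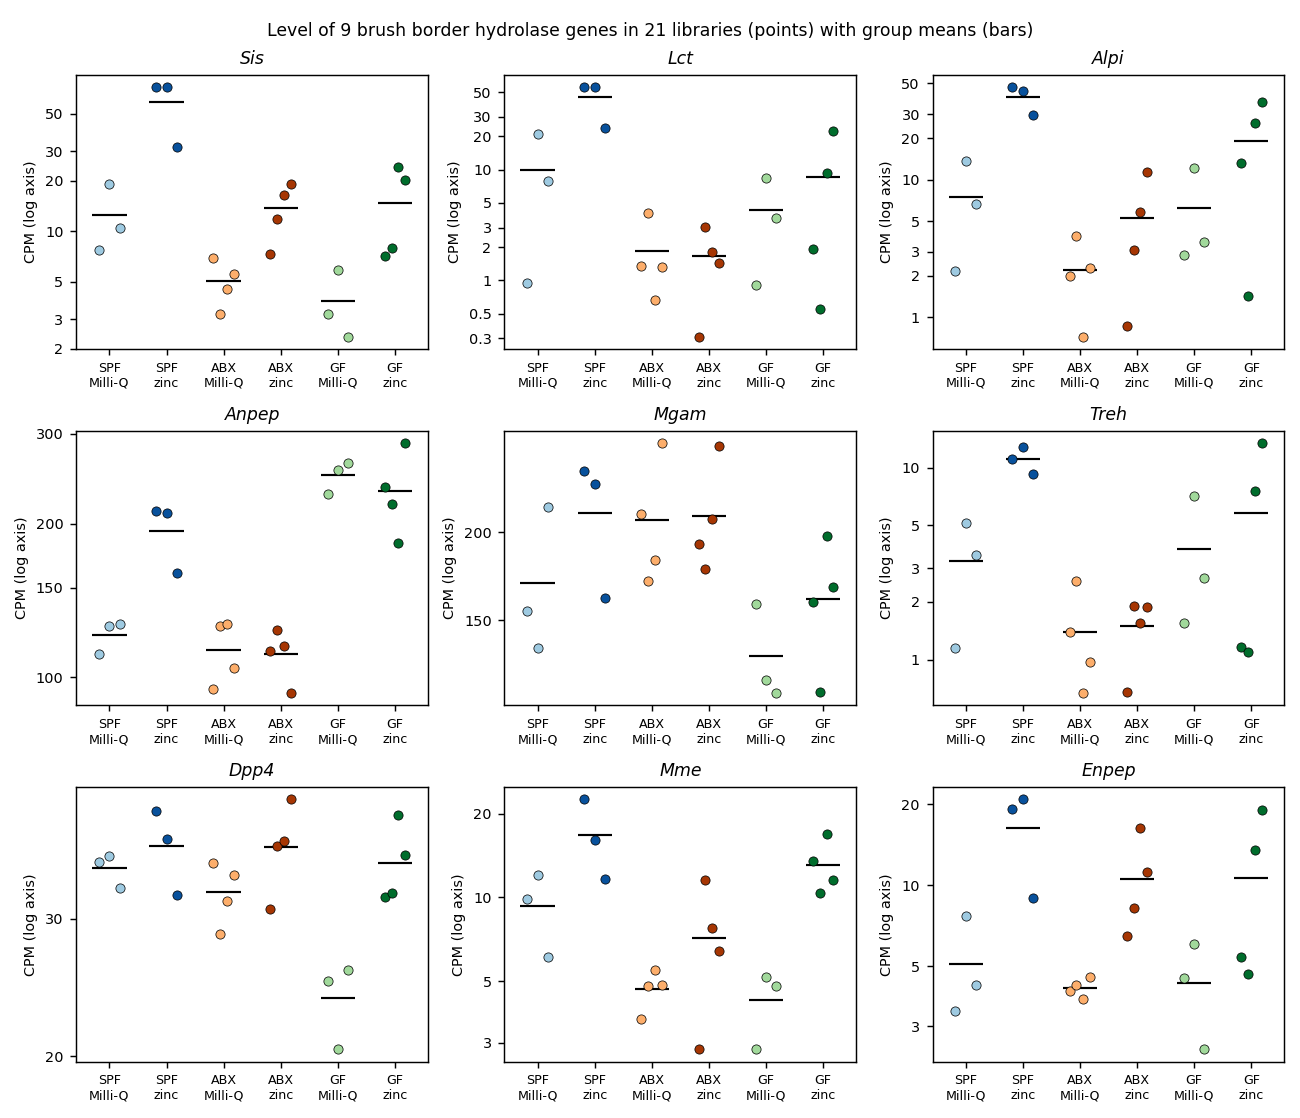
CPM of the 9 hydrolase genes (one panel each, log axis) in the 6 groups, with a point for each of the 21 libraries and a bar at the group mean. Sis, Lct, Alpi and Treh spread over 19.9-fold or more and peak in SPF mice on zinc water except for Treh, whose highest single library is GF zinc replicate 4, while Anpep, Mgam and Dpp4 stay within 3.08-fold.

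Zinc against Milli-Q water asks how these genes stood on the supplemented water in each microbiome context. Since the gene set was chosen with the rise of Sis in view, the values are a description and carry no test. Sis, Lct, Alpi, Treh and Enpep stood several-fold higher on zinc water in SPF mice. Sis had all zinc libraries above all Milli-Q libraries in ABX and GF mice too, and Enpep in ABX mice, whereas Enpep in GF mice, and Lct and Treh in both, overlapped between the waters. Mgam, Dpp4 and Anpep moved by less than 1 on the log2 scale in every context.

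Sucrase-isomaltase, which splits sucrose and the branch points of starch fragments, is encoded by Sis (ENSMUSG00000027790, chr3:72795890-72875196, minus strand). SPF mice had levels of 7.70, 19.2 and 10.5 CPM on Milli-Q water and 72.0, 72.1 and 31.6 CPM on zinc water. ABX mice had levels of 6.96, 3.21, 4.56 and 5.55 CPM on Milli-Q water and 7.37, 11.8, 16.4 and 19.1 CPM on zinc water. GF mice had levels of 3.24, 5.92 and 2.36 CPM on Milli-Q water and 7.17, 7.98, 24.0 and 20.2 CPM on zinc water. In each context all zinc libraries lay above all Milli-Q libraries, by a narrow gap in ABX and GF mice. The log2 fold change was 2.22 ± 0.42 (SE) in SPF, 1.42 ± 0.38 in ABX and 2.01 ± 0.49 in GF mice, and 1.88 ± 0.25 averaged over the contexts. In linear terms Sis was 4.67-fold higher on zinc water in SPF mice.

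Lct (ENSMUSG00000026354, chr1:128212493-128256055, minus strand) encodes lactase-phlorizin hydrolase, the enzyme of milk sugar digestion. The SPF libraries held 0.954, 20.9 and 7.88 CPM on Milli-Q and 55.6, 55.3 and 23.5 CPM on zinc water. The ABX libraries held 1.35, 4.07, 0.672 and 1.31 CPM on Milli-Q and 0.310, 3.04, 1.82 and 1.44 CPM on zinc water. The GF libraries held 0.907, 8.44 and 3.64 CPM on Milli-Q and 1.94, 0.547, 9.32 and 22.3 CPM on zinc water. The zinc libraries stood above the Milli-Q libraries in SPF mice, while in ABX and GF mice the waters overlapped. The log2 fold change was 2.16 ± 0.81 in SPF, -0.08 ± 0.90 in ABX and 1.06 ± 0.90 in GF mice.

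Treh (ENSMUSG00000032098, chr9:44584530-44597602, plus strand) encodes trehalase, which splits the disaccharide trehalose. In SPF mice the level was 1.16, 5.16 and 3.53 CPM on Milli-Q and 11.1, 12.8 and 9.23 CPM on zinc water. After antibiotics the level was 1.40, 2.56, 0.672 and 0.973 CPM on Milli-Q and 0.681, 1.90, 1.55 and 1.89 CPM on zinc water. In germ-free mice the level was 1.55, 7.11 and 2.68 CPM on Milli-Q and 1.16, 1.09, 7.55 and 13.4 CPM on zinc water. As with Lct, the waters were apart in SPF mice and overlapped in ABX and GF mice, with log2 fold changes of 1.73 ± 0.64, 0.14 ± 0.63 and 0.69 ± 0.65 in this order. Treh overlaps Phldb1 on the opposite strand (6152 counts over all libraries), and no source at hand says if the counting was strand-specific.

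Mgam (ENSMUSG00000068587, chr6:40605765-40746057, plus strand) encodes maltase-glucoamylase, which splits starch fragments and has a domain structure much like that of sucrase-isomaltase. SPF mice had levels of 154, 137 and 217 CPM on Milli-Q and 244, 234 and 161 CPM on zinc water. ABX mice had levels of 212, 170, 183 and 268 CPM on Milli-Q and 192, 178, 209 and 266 CPM on zinc water. GF mice had levels of 158, 123 and 118 CPM on Milli-Q and 159, 119, 198 and 167 CPM on zinc water. The waters overlapped in every context, and the log2 fold changes were 0.33 ± 0.21 in SPF, 0.02 ± 0.19 in ABX and 0.27 ± 0.20 in GF mice.

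Alpi (ENSMUSG00000079440, chr1:87025724-87029328, minus strand) encodes intestinal alkaline phosphatase, which removes phosphate from dietary and bacterial molecules. The SPF libraries held 2.18, 13.7 and 6.67 CPM on Milli-Q and 47.1, 43.7 and 29.5 CPM on zinc water. The ABX libraries held 2.00, 3.87, 0.720 and 2.29 CPM on Milli-Q and 0.867, 3.09, 5.86 and 11.3 CPM on zinc water. The GF libraries held 2.85, 12.1 and 3.53 CPM on Milli-Q and 13.2, 1.42, 25.6 and 36.8 CPM on zinc water. Only the SPF libraries separated by water, with a log2 fold change of 2.39 ± 0.74 against 1.27 ± 0.73 in ABX and 1.69 ± 0.77 in GF mice. Akp3, a close copy of Alpi that encodes the duodenal phosphatase, had group means of 1.40 and 33.0 CPM in SPF, 0.347 and 3.52 CPM in ABX and 2.89 and 11.5 CPM in GF mice on Milli-Q and zinc water. Counts of Alpi and Akp3 are uncertain to the extent that reads common to both could have been split between them.

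Anpep (ENSMUSG00000039062, chr7:79471551-79510807, minus strand) encodes aminopeptidase N, which trims neutral amino acids from peptides. In SPF mice the level was 111, 126 and 127 CPM on Milli-Q and 212, 210 and 160 CPM on zinc water. After antibiotics the level was 94.8, 126, 128 and 104 CPM on Milli-Q and 113, 124, 115 and 93.2 CPM on zinc water. In germ-free mice the level was 229, 255 and 263 CPM on Milli-Q and 236, 219, 184 and 288 CPM on zinc water. Zinc libraries were the higher ones in SPF mice alone, with a log2 fold change of 0.68 ± 0.16, against -0.02 ± 0.14 in ABX and -0.10 ± 0.15 in GF mice.

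Enpep (ENSMUSG00000028024, chr3:129062824-129126369, minus strand) encodes aminopeptidase A, which cleaves acidic residues and acts on angiotensin. SPF mice had levels of 3.41, 7.71 and 4.26 CPM on Milli-Q and 19.2, 20.8 and 9.01 CPM on zinc water. ABX mice had levels of 4.06, 4.26, 3.79 and 4.57 CPM on Milli-Q and 6.50, 8.23, 16.3 and 11.2 CPM on zinc water. GF mice had levels of 4.54, 6.07 and 2.46 CPM on Milli-Q and 5.42, 4.70, 13.6 and 19.0 CPM on zinc water. The waters did not overlap in SPF and ABX mice, and overlapped in GF mice. The log2 fold changes of 1.66 ± 0.43 in SPF, 1.33 ± 0.38 in ABX and 1.34 ± 0.45 in GF mice were the most even of the 5 variable genes.

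Mme (ENSMUSG00000027820, chr3:63148889-63293451, plus strand) encodes neprilysin, a zinc-dependent endopeptidase. The SPF libraries held 9.88, 12.1 and 6.09 CPM on Milli-Q and 22.5, 16.1 and 11.6 CPM on zinc water. The ABX libraries held 3.66, 4.79, 5.47 and 4.87 CPM on Milli-Q and 2.85, 11.6, 7.75 and 6.40 CPM on zinc water. The GF libraries held 2.85, 5.18 and 4.82 CPM on Milli-Q and 13.6, 10.4, 16.9 and 11.6 CPM on zinc water. The waters separated in GF mice and overlapped in SPF and ABX mice, as they did for Dpp4. The log2 fold changes of Mme were 0.84 ± 0.34 in SPF, 0.61 ± 0.30 in ABX and 1.61 ± 0.37 in GF mice.

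Dpp4 (ENSMUSG00000035000, chr2:62159798-62242576, minus strand) encodes dipeptidyl peptidase 4, which removes dipeptides from peptides and inactivates incretin hormones. In SPF mice the level was 35.5, 36.0 and 32.8 CPM on Milli-Q and 41.3, 38.0 and 32.2 CPM on zinc water. After antibiotics the level was 35.3, 28.7, 31.6 and 34.1 CPM on Milli-Q and 30.9, 37.2, 37.7 and 42.6 CPM on zinc water. In germ-free mice the level was 25.0, 20.4 and 25.8 CPM on Milli-Q and 32.0, 32.4, 40.7 and 36.2 CPM on zinc water. The GF mice on Milli-Q water held the lowest 3 levels of all 21 libraries, and the log2 fold change on zinc water was 0.57 ± 0.14 there against 0.09 ± 0.14 in SPF and 0.19 ± 0.12 in ABX mice.

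**Figure D2:**
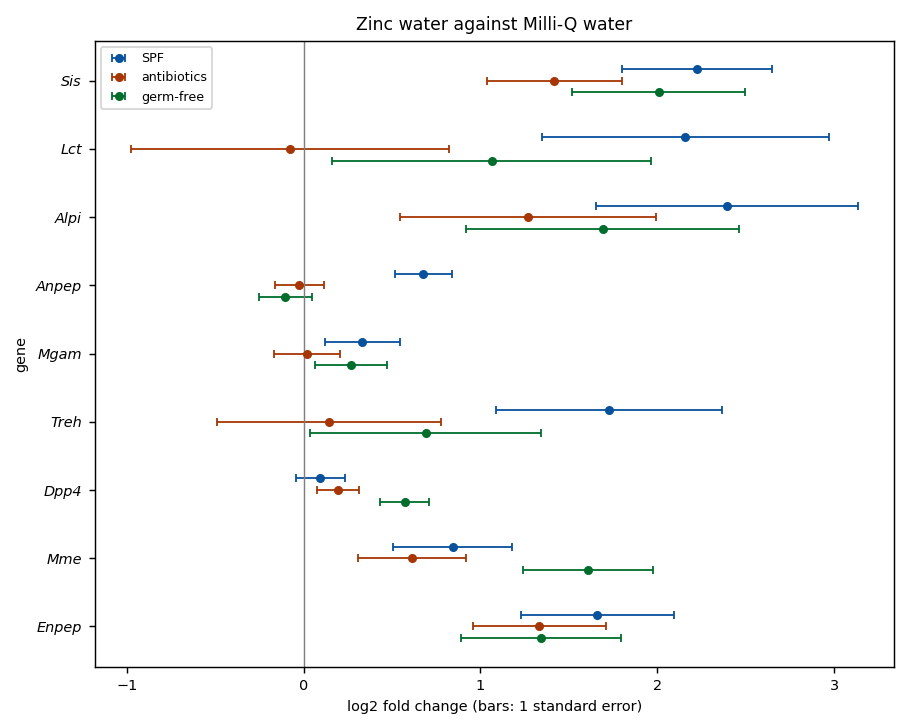
Log2 fold change on zinc against Milli-Q water of each hydrolase gene in SPF, ABX and GF mice, with bars of 1 standard error from the edgeR fit of all 21 libraries. Sis lies at 2.22, 1.42 and 2.01 and Enpep at 1.66, 1.33 and 1.34, while Lct runs from 2.16 in SPF to -0.08 in ABX mice.

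Counted over the 9 genes, 1 passed an adjusted p of 0.05 as higher on zinc water in SPF mice, where 0.0612% of all tested genes did, and 6 had zinc libraries all above Milli-Q libraries, as did 6.70% of all genes. After antibiotics, 2 passed as higher (10.2% of all genes) and 2 had waters apart with zinc higher (13.9%). In GF mice, 3 passed as higher (5.89%) and 3 had waters apart with zinc higher (5.74%). Averaged over the contexts, 5 passed as higher, beside 10.7% of all genes. None passed as lower in any of these. Nothing is read from these counts, since the set was chosen on this contrast. The median log2 fold change of the 9 was 1.66 in SPF, 0.19 in ABX and 1.06 in GF mice, beside medians of all tested genes of -0.02, 0.01 and -0.02.

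Summed enterocyte markers rose and fell with several of these genes from library to library, and their part in the result was not tested. As a measurement that bears on it, Sis was set relative to the summed markers. Per 1000 CPM of enterocyte markers, Sis had 16.5 to 30.5 CPM on Milli-Q and 33.0 to 50.9 CPM on zinc water in SPF mice. The ratio was 8.39 to 18.9 against 19.0 to 33.5 in ABX mice and 3.84 to 9.01 against 9.74 to 21.9 in GF mice. Relative to the enterocyte markers, the zinc libraries again lay above the Milli-Q libraries in each context, in ABX mice by a gap of 18.9 against 19.0. Sis was chosen for its rise on zinc water, so this separation is a description. For Lct the same ratio was 2.05 to 33.2 on Milli-Q water and 24.5 to 39.04 on zinc water in SPF mice, with overlap. In SPF mice the ratio overlapped for Enpep, Treh and Mme too. It was higher on zinc water for Alpi (26.7 to 30.9 against 4.68 to 21.8). It was lower there, without overlap, for Anpep (120 to 167 against 200 to 252). The same held for Mgam (139 to 169 against 217 to 431) and Dpp4 (23.4 to 33.6 against 57.2 to 76.2). In ABX mice the ratio of Enpep was higher on zinc water without overlap, at 16.3 or more against 11.6 or less on Milli-Q water. In GF mice the ratio of Enpep overlapped. For the hydrolases other than Sis and Enpep, the ratio overlapped in both ABX and GF mice. With the summed markers as a term in the fit, the zinc difference of Sis on the log2 scale was 1.03 in SPF, 0.99 in ABX and 1.56 in GF mice, that of Enpep 0.52, 0.95 and 0.78, and that of Lct was below 0 in all 3 contexts, at -0.45 in SPF and -0.42 in GF mice.

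Whether the zinc difference itself differed between contexts was tested as an interaction. The interactions are built from the zinc contrasts by which the set was chosen, so they are not independent of that choice. For Sis, the gene it rested on, the values are a description. None of the 9 genes passed for ABX against SPF mice (0% of all genes passed), for GF against SPF mice (0%) or for GF against ABX mice (0.207%) by edgeR's quasi-likelihood test. At an unadjusted p of 0.05 the numbers were 1, 2 and 1. The shares of all genes at that threshold are not given, and nothing is read from these numbers. DESeq2 called 1, 0 and 0, the call being Anpep, whose zinc difference was 0.70 lower on the log2 scale in ABX than in SPF mice (95% interval -1.14 to -0.26, adjusted p = 0.119 by edgeR and 0.0470 by DESeq2). For Sis the zinc difference in ABX mice differed from that in SPF mice by -0.81 (95% interval -1.96 to 0.35), and that in GF mice by -0.22 (-1.55 to 1.12). For Lct these intervals ran from -4.71 to 0.24 and from -3.57 to 1.38. Without the filter on low counts 3 genes passed for ABX against SPF mice, namely Lct, Alpi and Treh. The share of all genes that passed in that fit is not given. Without GF zinc replicate 4, Anpep passed for GF against SPF mice, at -0.90 with an adjusted p of 0.0203 by edgeR, against -0.78 and 0.215 with it.

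On zinc water, ABX mice were set against SPF mice. All comparisons of microbiome contexts reuse libraries of the zinc contrast by which the set was chosen, so that they are not independent of that choice, and the values of Sis, the gene it rested on, are given as a description with no p. Counts of passing genes here and below include Sis, whose passing is not read as a test. In ABX mice Sis, Lct, Treh, Alpi, Anpep and Mme were lower, and Mgam and Dpp4 differed by 0.02 or less on the log2 scale. For all 6 every ABX library lay below every SPF library. Lct fell most, from between 23.5 and 55.6 CPM to between 0.310 and 3.04 CPM, a log2 fold change of -4.73 ± 0.85 (adjusted p = 0.0031, edgeR). Alpi changed by -2.94 ± 0.69 (adjusted p = 0.0129) and Treh by -2.86 ± 0.62 (0.0084). Sis was at -2.10 ± 0.38. The peptidases Mme and Anpep changed by -1.22 ± 0.31 (0.0202) and -0.80 ± 0.15 (0.0033). The peptidase Enpep was at -0.63 ± 0.39 and did not pass (adjusted p = 0.310). Mgam was at -0.02 with a 95% interval of -0.43 to 0.40. Dpp4, also a peptidase, was at -0.00 with an interval of -0.27 to 0.27.

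In all, 6 of 9 passed as lower, Sis among them, beside 4.21% of all tested genes, and 6 had groups apart with ABX lower, beside 13.2%. The median of the 9 was -1.22 against -0.00 over all genes. Leaving out SPF zinc replicate 2 took Alpi to an adjusted p of 0.0523. Mme did not pass without ABX zinc replicate 1 (-0.96, adjusted p = 0.0553), SPF zinc replicate 1 (-0.95, 0.105) or SPF zinc replicate 2 (-1.25, 0.0637), nor with library totals as the scaling (-1.04, 0.0721). Without SPF zinc replicate 1, the library with Xist, 5 genes passed and Sis was at -1.93.

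The enterocyte markers moved the same way, with 7 of 12 lower in ABX than in SPF mice on zinc water (Apoa4 at -4.50, Fabp1 at -3.85 and Apoa1 at -3.75) and a median of -1.18 over the list. Paneth cell markers had 2 of 9 lower (median -0.49), and goblet cell markers 4 of 8 higher (median 0.99), beside 4.21% of all genes lower and 4.76% higher, and the part of these shifts was not tested. Apoa4 and Apoa1 encode apolipoproteins of intestinal fat export and Fabp1 a fatty acid binding protein. With the summed markers as a term, 1 of the 9 hydrolases passed, which was Anpep at -0.65 (adjusted p = 0.0336). Sis was then at -0.83, Lct at -1.77 (0.134), Treh at -0.82 (0.289), Alpi at -0.94 (0.351) and Mme at -0.77 (0.245). With the mean log2 level of the markers as the term, a fit added after seeing the data, 1 passed as well, and Sis was at -0.77.

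On Milli-Q water, ABX mice against SPF mice gave no call among the 9, beside 0.199% of all genes called in either direction. At an unadjusted p of 0.05 there were 4, and DESeq2 called 0. Nothing is read from the 4, since the share of all genes at that threshold is not given. Mme and Sis were lower in every ABX library than in every SPF library, beside 4.05% of all genes with ABX lower and no overlap. Their log2 fold changes were -0.99 ± 0.32 and -1.29 ± 0.40, with an adjusted p of 0.331 for Mme (edgeR). Lct was at -2.49 ± 0.83 and Alpi at -1.81 ± 0.75, with SPF libraries that spread from 0.954 to 20.9 CPM for Lct and from 2.18 to 13.7 CPM for Alpi. The antibiotics and germ-free comparisons on one water share their SPF libraries and are not independent.

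Germ-free against SPF mice on Milli-Q water separated the peptidases. Anpep was higher in GF mice, at 229 to 263 CPM against 111 to 127 CPM, a log2 fold change of 1.04 ± 0.16 (adjusted p = 0.00014, edgeR). Mme was lower at -1.12 ± 0.38 (0.0332) and Dpp4 at -0.55 ± 0.14 (0.0084), and Sis was at -1.74 ± 0.50. Thus 1 of 9 passed as higher, beside 12.7% of all genes, and 3 as lower, Sis among them, beside 11.6%. The same genes had no overlap between groups, 1 higher and 3 lower, beside 19.3% and 18.8% of all genes. With backgrounds of this size, no result for the hydrolases as a set is read from these counts. Their median was -0.35 against -0.03 over all genes. Lct, Alpi, Treh, Enpep and Mgam did not pass, with values from -1.24 ± 0.91 for Lct to 0.16 ± 0.69 for Treh.

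The size and the call of the Anpep difference in GF mice depended on the scaling. When libraries were scaled by their totals and not by TMM, the median of all genes moved to -0.99. Anpep then stood at 0.07 (adjusted p = 0.772, edgeR). In that fit 6 of the 9 passed as lower, Lct, Mgam and Enpep among them. The share of all genes that passed there is not given, so nothing is read from this count. Relative to the median of all genes, Anpep was higher under both scalings. This is no separate check, since TMM itself centers libraries on the bulk of genes, and it cannot decide between the scalings. With the summed enterocyte markers as a term, Sis was at -1.97. The summed markers were at 359 to 1087 CPM in GF and 466 to 630 CPM in SPF mice, and took 0.0233% to 0.0683% and 0.0516% to 0.0865% of all counts. Sis was at -1.47 without GF Milli-Q replicate 3 and at -1.32 without SPF Milli-Q replicate 2. Dpp4 did not pass without GF Milli-Q replicate 2 (-0.45, adjusted p = 0.0634). Mme passed in 1 of 6 such fits, and was lost without GF Milli-Q replicate 1 (-0.90, 0.1201), 2 (-1.27, 0.0615) or 3 (-1.23, 0.0644) and without SPF Milli-Q replicate 1 (-1.11, 0.0624) or 2 (-0.92, 0.114).

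On zinc water the same contrast gave no call beyond Sis, the gene on which the choice rested, which is described here and not tested. Sis was at -1.96 ± 0.39 in GF mice, with 7.17 to 24.0 CPM against 31.6 to 72.1 CPM. Lct, at -2.34 ± 0.76, had no overlap either and an adjusted p of 0.0679 (edgeR). Counted with Sis, 1 of 9 passed as lower, beside 2.38% of all genes, and 2 had groups apart with GF lower, beside 8.31%. The other 7 were between -1.05 ± 0.66 for Alpi and 0.26 ± 0.15 for Anpep. Sis was at -1.80 without SPF zinc replicate 2 and at -1.96 in a fit of these 7 libraries alone. With GF zinc replicate 4 left out, Lct passed as well (-3.46, adjusted p = 0.0091). Under library totals 6 of the 9 passed as lower, while the median of all genes stood at -0.61. Nothing is read from that count, since the share of all genes that passed in that fit is not given. With the summed enterocyte markers as a term, Sis was at -1.44.

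**Figure D3:**
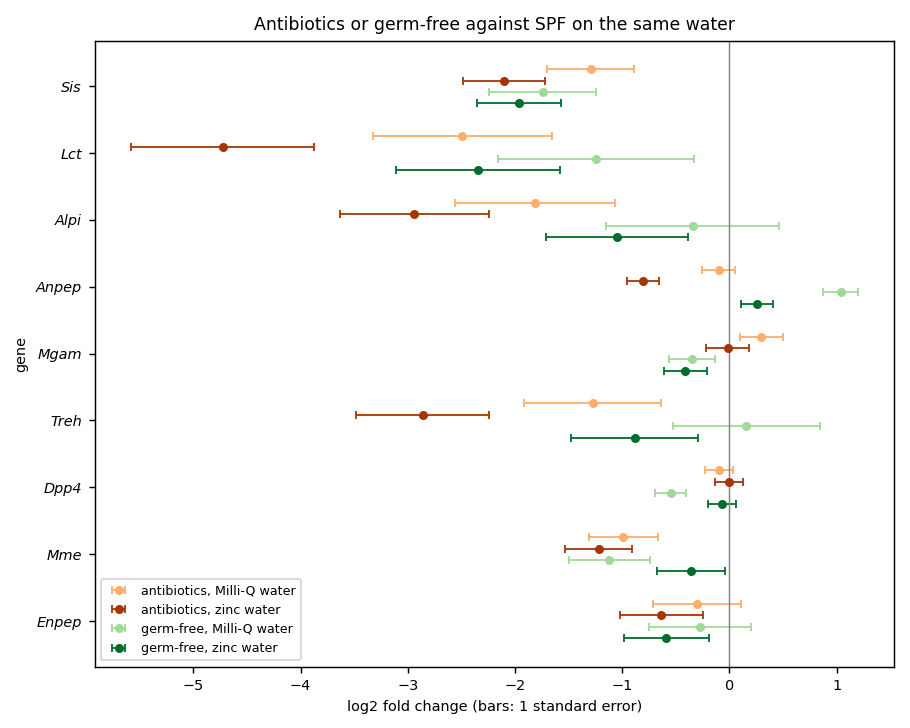
Log2 fold change of each hydrolase gene in ABX or GF against SPF mice on the same water, with bars of 1 standard error. On zinc water ABX mice lie lowest, from -4.73 for Lct to -0.80 for Anpep among the genes that passed, and Anpep is at 1.04 in GF mice on Milli-Q water.

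Across the 21 libraries the variable hydrolases had higher correlations with the enterocyte markers than the steady ones. Taken as deviations from the group means, so that water and context drop out, the Pearson correlation with the summed enterocyte markers was 0.88 for Treh, 0.82 for Lct, 0.77 for Enpep, 0.77 for Alpi and 0.74 for Sis (log2 CPM, n = 21). It was 0.39 for Mme, 0.33 for Dpp4, 0.31 for Anpep and 0.30 for Mgam. Without the 2 libraries farthest from the median, both GF mice on zinc water (replicates 2 and 4), it was 0.80 for Treh, 0.72 for Lct, 0.64 for Enpep, 0.65 for Alpi and 0.75 for Sis, against 0.53 for Mme, 0.30 for Dpp4, 0.16 for Mgam and 0.04 for Anpep. The points share depth and scaling within a library, and these correlations are a description with no test.

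**Figure D4:**
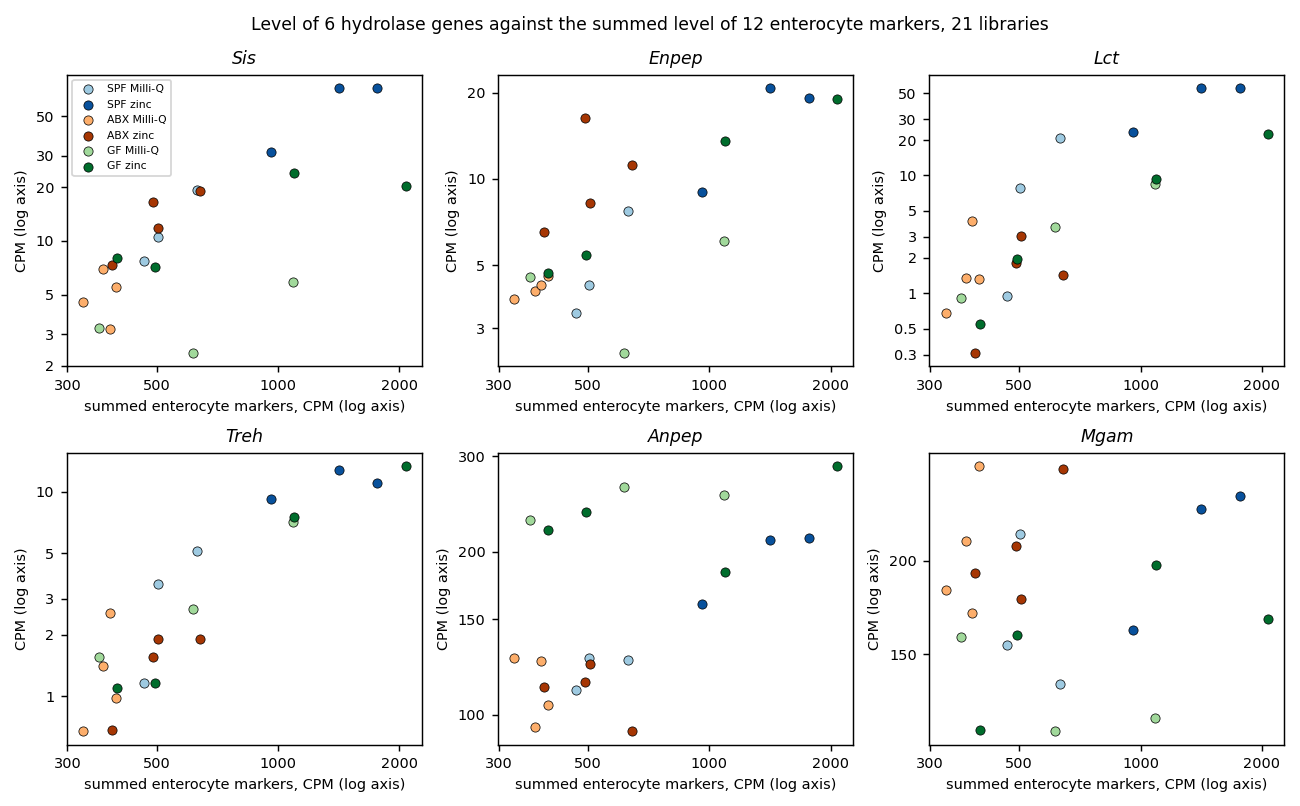
CPM of 6 hydrolase genes against the summed CPM of 12 enterocyte markers in the 21 libraries, both on log axes, with a color for each group. Treh and Lct tend to be higher where the markers, which run from 328 to 2074 CPM, are higher. Lct peaks at 55.6 CPM in SPF zinc replicate 1. It is at 22.3 CPM in GF zinc replicate 4, which has the highest markers, and at 4.07 CPM or less in ABX mice. Anpep in GF mice stays between 184 and 288 CPM whatever the marker level, and Mgam shows no climb with the markers.

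Among the hydrolases themselves, deviations from group means were closest for Lct and Treh (r = 0.94), Sis and Enpep (0.89) and Lct and Alpi (0.86). Sis and Anpep had a correlation of -0.03. Mgam correlated at 0.56 with Dpp4 and at 0.16 with Lct. Sis and Mgam, whose proteins are close relatives in sequence and task, had one of 0.49.

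**Figure D5:**
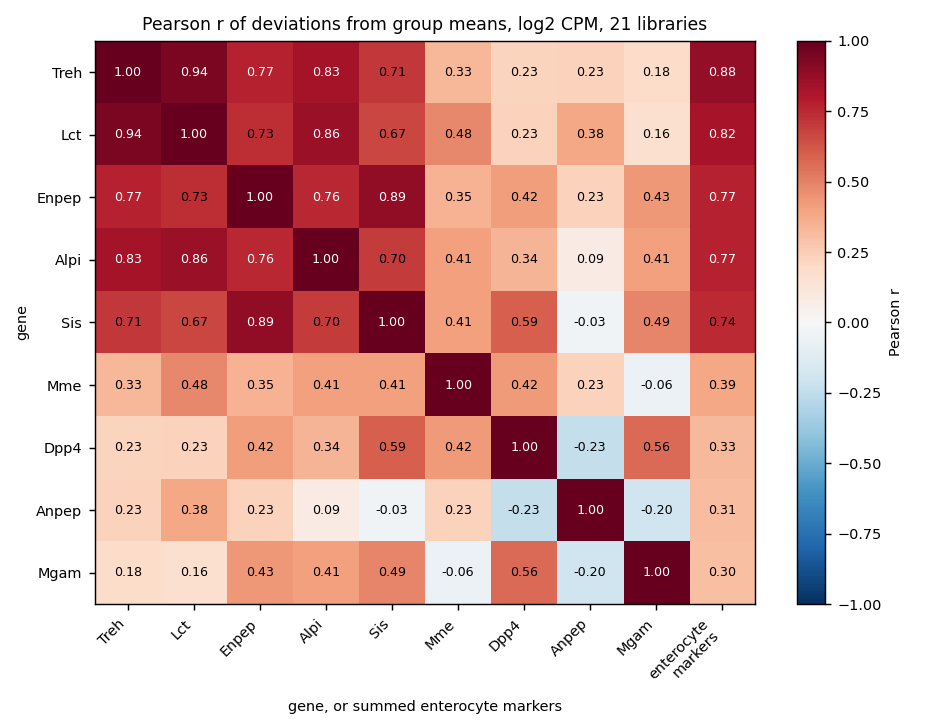
Pearson correlations of the deviations from group means (log2 CPM, 21 libraries) between each pair of the 9 hydrolase genes and, in the last column, with the summed enterocyte markers. Treh, Lct, Enpep, Alpi and Sis form a block with values between 0.67 and 0.94, and Mme, Dpp4, Anpep and Mgam have lower values with that block and with the markers.

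By level over all 21 libraries, the 5 genes most like Sis out of 9351 with a mean of at least 5 CPM were Ces2c (r = 0.90), Apob (0.89), Cyp4f14 (0.89), Enpep (0.87) and Cyp3a11 (0.87). Ces2c encodes a carboxylesterase, Cyp4f14 and Cyp3a11 cytochrome P450 enzymes, and Apob the apolipoprotein of chylomicrons. On library totals 4 of these 5 stayed among the 5 highest.

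Other genes of the brush border were counted from lists. Of 16 further hydrolases 13 were tested, and 8 of the 13 were higher on zinc water averaged over the contexts, with none lower and a median of 0.71. Examples are Akp3 at 3.29 ± 0.59, Enpp7, an alkaline sphingomyelinase, at 2.27 ± 0.53, and Dpep1, a dipeptidase, at 1.57 ± 0.46. Of 16 nutrient transporters, 4 were higher and none lower (median 0.41), among them Slc6a19, the transporter of neutral amino acids, at 1.70 ± 0.39, and the glucose transporter Slc2a2 at 1.36 ± 0.49. Of 12 structural genes of microvilli, 3 were higher (Pls1 at 0.58 ± 0.10 and Eps8 at 0.43 ± 0.10) and 4 lower (Myo1a at -0.38 ± 0.11), with a median of 0.01. Over all genes in this contrast 10.7% were higher and 11.2% lower, with a median of -0.01. Nothing is read from the counts of any of these lists. The set was chosen on the zinc contrast, and the lists were chosen with earlier results of these data known.

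In ABX against SPF mice on zinc water, where 4.21% of all genes passed as lower, 8 of the 13 tested hydrolases were lower and none higher (median -1.92), for example Akp3 at -3.25 ± 0.84 and Ggt1, the glutathione-splitting glutamyl transferase, at -3.10 ± 0.79. Of 16 transporters 12 were lower and none higher (median -1.32), with Slc28a1 at -3.56 ± 0.93, Slc2a2 at -3.39 ± 0.77 and the peptide transporter Slc15a1 at -2.87 ± 0.78. The microvillus list had 2 of 12 lower (Cdhr2 at -0.70 ± 0.12 and Cdhr5 at -0.65 ± 0.16, both cadherins that link microvilli tips) and a median of -0.23. The median of all genes was -0.00. This contrast reuses libraries on zinc water, and the lists were chosen with earlier results known, so these counts are a description.

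Among transcription factors known to act on intestinal genes of this kind, Hnf4g, an HNF4 family member of enterocytes, was higher on zinc water by 0.89 ± 0.14 averaged over the contexts, with group means of 15.9 and 22.6 CPM in SPF, 10.7 and 19.3 CPM in ABX and 7.40 and 18.4 CPM in GF mice on Milli-Q and zinc water. Maf was lower in ABX than SPF mice on zinc water (-2.35 ± 0.56). The metallothionein genes Mt1 and Mt2, which respond to zinc through Mtf1, were higher by 3.57 ± 0.20 and 5.30 ± 0.27 averaged over the contexts. Their group means on zinc water lay between 495 and 778 CPM in all 3 contexts. On Milli-Q water both stood higher in GF than in SPF mice, by 1.42 ± 0.33 and 1.94 ± 0.44 (adjusted p = 0.0038 and 0.0030, edgeR). For neither did the interaction of water with context pass, with values of 0.25 ± 0.43 and -0.22 ± 0.55 for ABX against SPF (adjusted p = 0.789 and 0.858, edgeR) and of -0.79 ± 0.45 and -1.48 ± 0.57 for GF against SPF (0.448 and 0.285).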

How the data were processed

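Paneth cells of mouse small intestine were sorted by FACS, and stranded, poly(A)-selected RNA-seq libraries were made from them. The deposited values are whole-number counts per gene, with no normalization. Per the labels the authors used FastQC 0.12.0, STAR 2.7.0a, DESeq2 and the mm39 build. The step that made the counts, its use of strand and its treatment of reads with several matches are not given in the sources used here. Of 55414 identifiers, 54749 matched GENCODE M39 on GRCm39, and 0.0164% of counts lay on the others.

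The 9 genes and all gene lists were chosen with earlier results of these data known. All 21 libraries were fitted in 1 edgeR quasi-likelihood model (edgeR 4.0.16, limma 3.58.1, R 4.3.3) with 6 groups, TMM factors and edgeR's filter on low counts, which left 13070 genes. The model gave 11 comparisons. P-values were adjusted by Benjamini-Hochberg over all tested genes, with a threshold of 0.05, and intervals are 95%. CPM are TMM-scaled, and log2 CPM used a prior count of 2. The script was tested on simulated data. Named genes were the 9 hydrolases, the 3 with the largest change among those that passed in each list (brush border hydrolases, transporters, microvillus, enterocyte, transcription factor and zinc genes), Mt1, Mt2 and Akp3, and the 5 genes most like Sis by Pearson correlation of log2 CPM. No 2 libraries of a group agreed within counting noise, as a library deposited repeatedly would. DESeq2 1.42.0, other scalings and filters, a replicate block, terms for enterocyte markers, fits of the compared groups alone and fits without each library were the alternatives. Figures were drawn with matplotlib 3.10.9. Results of some listed genes are not reported here.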

Additional observations from a re-analysis of the deposited data

Results flagged for a closer look

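In 27 sets of a hydrolase gene in a group of 4 libraries, no library stood apart from the others beyond Dixon's 95% critical value, where chance flags about 1 in 20 sets. No interaction of water with microbiome context passed for any of the 9 genes by edgeR's quasi-likelihood test, while 1, 2 and 1 had an unadjusted p under 0.05 for ABX against SPF, GF against SPF and GF against ABX, and DESeq2 called 1, 0 and 0. These interactions reuse the zinc contrasts by which the set was chosen. Shares of all genes at the unadjusted threshold are not given, so nothing is read from the counts.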

How the results depend on the processing

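With DESeq2-type size factors, TMM without Defa genes or a filter of 10 counts in 10 libraries, each of the 11 counts of hydrolases past the threshold stayed within 1.5 times its value, and no called fold change turned sign under any alternative run. With library totals, zinc calls in SPF mice went from 1 to 0 and in ABX mice from 2 to 0, and germ-free calls on zinc water from 1 to 6. DESeq2 gave 2 zinc calls in SPF mice and 1 interaction call for ABX against SPF. Without the filter on low counts there were 7, 4 and 6 zinc calls in SPF, ABX and GF mice, 5 for antibiotics on Milli-Q water, 4 for germ-free on zinc water and 3 for the interaction of ABX with SPF. With summed enterocyte markers as a term there were 0 zinc calls in SPF mice, 3 averaged over contexts, 1 for antibiotics on zinc water and 2 for germ-free on zinc water. With their mean log2 level, added after seeing the data, these were 0 for SPF zinc, 1 for antibiotics and 2 for germ-free on zinc water. Fits of the compared groups alone, which hold fewer libraries, gave 0 zinc calls in SPF mice, 0 in GF mice and 0 for germ-free on zinc water. Apart from these fits, the cause of these shifts was not tested. Shares of all genes that passed are not given for the alternatives or for the fits without 1 library. Their counts describe dependence on the processing alone.

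With 1 library left out, zinc calls ranged from 0 to 1 in SPF mice (0 without replicate 1 or 3 on Milli-Q or replicate 1 or 2 on zinc water), from 1 to 3 in ABX mice (1 without ABX Milli-Q replicate 2 or ABX zinc replicate 3), from 0 to 4 in GF mice (0 without GF Milli-Q replicate 2 or GF zinc replicate 3) and from 5 to 6 averaged over contexts. They ranged from 4 to 6 for antibiotics on zinc water, from 2 to 4 for germ-free on Milli-Q water (2 without SPF Milli-Q replicate 2, GF Milli-Q replicate 2 or GF Milli-Q replicate 3), from 0 to 2 for germ-free on zinc water (0 without SPF zinc replicate 2, 2 without GF zinc replicate 4) and from 0 to 1 for the interaction of GF with SPF (1 without GF zinc replicate 4). Same-numbered libraries of different groups correlated between -0.39 and 0.23 over 48 pairs, with 7 over 0.1. Differently numbered libraries were not set beside them, so this cannot tell whether the numbers pair the samples. With the replicate number as a block, germ-free calls on zinc water went from 1 to 2, Lct being added, and the other 10 counts stayed within 1.5 times. Replicate numbers are those of the titles. Column names number the germ-free Milli-Q libraries 1, 3 and 4 instead. With these, in a check added after seeing the data, 6 of 46 pairs were over 0.1, and the block gave 2 germ-free calls on zinc water and 3 on Milli-Q water, Mme being lost (-1.04, adjusted p = 0.0774). Depth limits Lct and Treh most, with 5 and 6 counts in their lowest libraries.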
